A study of Homo sapiens with 6 samples.

Results

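Transcripts of 44 genes of the RNA polymerase II (Pol II) preinitiation complex and of Pol II itself were followed in HepG2 cells. The genes were taken by name: the TATA-binding protein TBP and its relative TBPL1, 13 TBP-associated factors (TAFs), 3 genes of TFIIA and TFIIB, 4 of TFIIE and TFIIF, 7 of the TFIIH core, 3 of the TFIIH kinase module and 12 Pol II subunits. The TFIID subunits TAF2, TAF8 and TAF10 were not among them. All 44 were found among the 26475 genes of the table, and all 44 passed the filter on low counts that left 12902 tested genes. HepG2 is an established line from a human liver tumour. One group expressed TAF2, a subunit of TFIID, and the other expressed eGFP, a fluorescent reporter, with 3 RNA-seq libraries in each. RNA came from cultures in exponential growth. The labels give no vector, promoter, clone or time of expression. Nor do they state that replicates were independent cultures, so a p-value here covers the variation among these 6 libraries and that variation may be technical.

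Transcription of protein-coding genes starts when general transcription factors assemble at a promoter. TFIID, built of TBP and the TAFs, recognises the core promoter, TFIIA and TFIIB steady TBP on the DNA, and TFIIF brings in Pol II. TFIIE then recruits TFIIH, whose helicase-like subunits open the DNA and whose kinase module phosphorylates the tail of the largest Pol II subunit as transcription begins.

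Values are CPM (counts scaled to library size), and a gene was called when its adjusted p in edgeR's quasi-likelihood test over all tested genes was below 0.05. TAF2 itself had 50.1, 48.3 and 47.4 CPM in TAF2 libraries, against 35.8, 40.4 and 37.5 CPM in eGFP libraries (log2 fold change 0.36, edgeR adjusted p = 1.44e-08). Whether its count includes reads of an introduced copy was not given in the sources used here. Total counts ranged from 22276298 to 28024001 per library, and a member's count in a library ranged from 159 to 8933. Of 8 markers of HepG2, 7 were lower in TAF2 libraries without overlap, while 50.6% of all tested genes did not overlap, in either direction. The 8 summed to 35261 to 37079 CPM in TAF2 libraries, against 43419 to 45110 CPM in eGFP libraries. Most of this was APOB, at 19630 CPM on average in TAF2 libraries and 23029 CPM in eGFP libraries. Of 10 markers of other cell types, COL1A1 and SYP were higher in TAF2 libraries without overlap, and the 10 summed to 7.70 to 8.52 CPM in TAF2 libraries, against 4.45 to 6.01 CPM in eGFP libraries, and PTPRC, CD3E and MYH7 were at 0 in all 6. The part of these differences in the results was not tested.

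Most preinitiation complex and Pol II transcripts differed little between the groups, and those that differed did so in both directions. With TAF2, 11 members rose and 8 fell, while 25 were not called. Among those that rose were TAF4, TAF15 and TAF9B of the listed TAFs, GTF2F2 of TFIIF, the TFIIH kinase CDK7 and the Pol II subunit POLR2J. Among those that fell were TAF9, the TFIIH scaffold GTF2H1 and the Pol II subunits POLR2G and POLR2L. The 19 called members are 43.2% of the list, and 43% of all tested genes were called, 20.6% higher and 22.4% lower, so the share of members called was near the background. Groups did not overlap for 22 members (50%), against 50.6% of all tested genes.

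Changes within the list were small. Log2 fold changes, TAF2 over eGFP, ran from -0.36 for POLR2G to 0.27 for TAF9B, with a median of 0.04, against -0.0027 over all tested genes. The median size of the change without its sign was 0.10 over the members and 0.13 over all tested genes. Only TAF9B, GTF2F2, GTF2H1 and POLR2G were past 1.2-fold, which is 9.09% of the members, against 24.8% of all tested genes. The 95% intervals of 29 members lay within 1.2-fold in either direction, and 0 lay wholly beyond it. Tested against a change of 1.2-fold with edgeR's glmTreat, 0 members were called and 1, POLR2G, had an unadjusted p under 0.05 (edgeR adjusted p = 0.0672), while 1243 genes of the whole table (9.63%) were called. These comparisons with all tested genes were not matched for expression level. Every member had at least 159 counts in each library, and the tested genes included some with fewer, such as POLR2J4 with 40 to 69. In bulk RNA, fewer cells with a transcript and less of it per cell cannot be told apart.

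**Figure D1:**
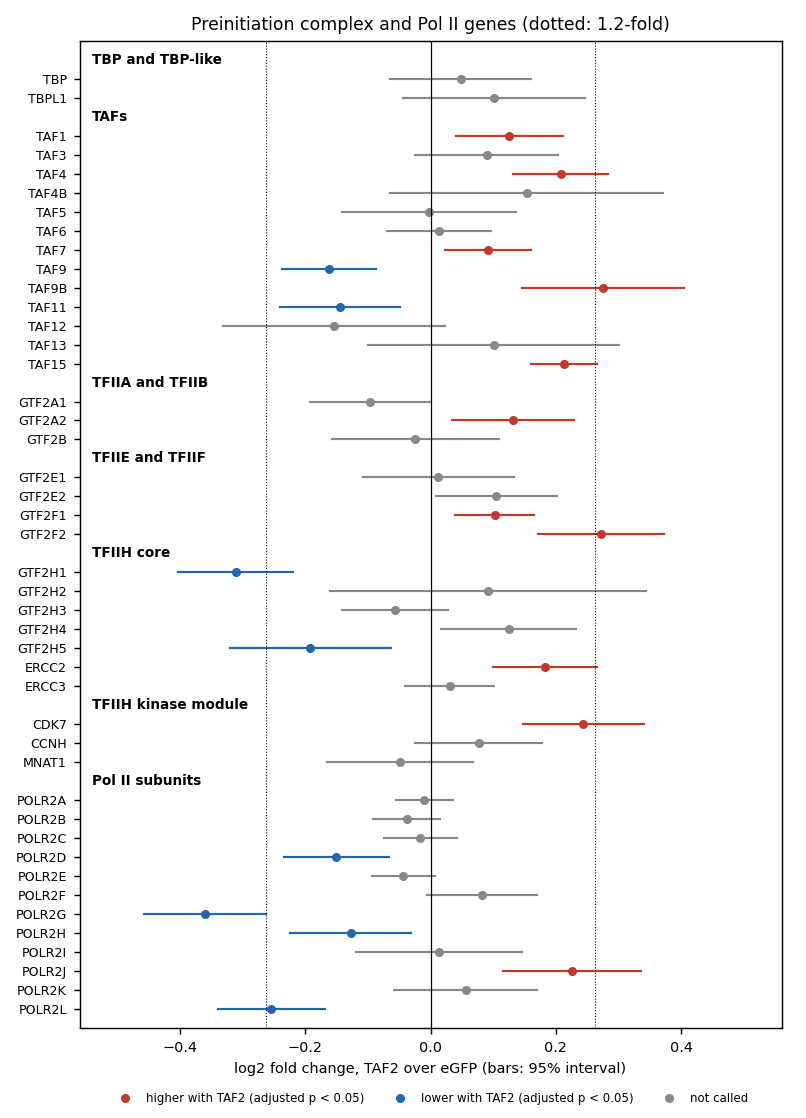
Log2 fold change of each of the 44 members, TAF2 over eGFP, with its 95% interval from the edgeR fit on 3 libraries per group, ordered by role; dotted lines mark 1.2-fold. Red marks the 11 members that rose, blue the 8 that fell and grey the 25 not called, and the points run from -0.36 to 0.27.

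Promoter sequence is printed for 2 members that rose, TAF9B and TAF4, and 2 that fell, POLR2D and POLR2L, so that the letters before a start can be set beside transcripts that moved in opposite directions. Each comes from the 250 bases before a RefSeq start on GRCh38.p14, kept where no annotated exon covers it and written 5′ to 3′ on the gene's strand. The stretches are TAF9B at chrX:78139707-78139900 (194 bases, minus strand), TAF4 at chr20:62065882-62066131 (250 bases, minus strand), POLR2D at chr2:127858158-127858405 (248 bases, minus strand) and POLR2L at chr11:842546-842779 (234 bases, minus strand).
TAF9B: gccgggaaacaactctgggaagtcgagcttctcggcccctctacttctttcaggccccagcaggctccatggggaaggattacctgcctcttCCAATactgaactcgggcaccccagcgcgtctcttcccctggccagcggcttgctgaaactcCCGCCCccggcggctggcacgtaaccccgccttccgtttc
TAF4: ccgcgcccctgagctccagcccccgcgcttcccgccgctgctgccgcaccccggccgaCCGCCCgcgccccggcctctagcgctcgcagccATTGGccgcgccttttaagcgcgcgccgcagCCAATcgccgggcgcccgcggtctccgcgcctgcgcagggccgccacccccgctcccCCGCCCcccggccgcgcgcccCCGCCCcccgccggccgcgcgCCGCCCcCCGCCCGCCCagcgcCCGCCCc
POLR2D: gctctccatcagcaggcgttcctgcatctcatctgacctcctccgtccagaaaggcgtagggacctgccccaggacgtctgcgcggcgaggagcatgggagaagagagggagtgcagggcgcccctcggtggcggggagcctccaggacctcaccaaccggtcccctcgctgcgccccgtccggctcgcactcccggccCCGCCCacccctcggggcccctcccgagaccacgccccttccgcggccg
POLR2L: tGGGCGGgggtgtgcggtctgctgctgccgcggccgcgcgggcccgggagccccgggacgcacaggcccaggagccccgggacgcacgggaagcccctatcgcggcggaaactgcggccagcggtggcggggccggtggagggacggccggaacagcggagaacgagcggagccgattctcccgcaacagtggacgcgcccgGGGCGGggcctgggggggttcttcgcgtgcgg
Capitals mark CCAAT boxes (CCAAT) and GC boxes (GGGCGG), read on either strand. TAF4 held 2 CCAAT boxes and 7 GC boxes, TAF9B held 1 of each, POLR2D held 1 GC box and POLR2L held 2, so GC boxes stood before members of both directions. These motifs, an ETS-like motif (CCGGAAG) and the TATA box (TATAAA) were searched on both strands, with overlaps allowed, in windows of 300 bases that run 50 bases past the start. Of the 48 windows listed for 38 members, the TATA box was in 4.2%, against 11.5% of all 35116 windows, and the CCAAT box in 22.9%, against 34.6%. The GC box was in 64.6% of the members' windows, against 45% of all, and the ETS-like motif in 35.4%, against 10.3%. The TATA box matched in GTF2B and TAF4B alone among these members, neither of them called. The CCAAT box matched in 10 members: ERCC2, TAF4 and TAF9B rose, TAF11 fell and the rest were not called. Other members that rose had no CCAAT match, among them CDK7 and GTF2F2. A match is a run of letters in a window and not a measured binding site.

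TBP, which bends promoter DNA at the core of TFIID, was not called. It had 24.2, 24.4 and 25.5 CPM in TAF2 libraries, against 23.1, 23.9 and 24.8 CPM in eGFP libraries, and the groups overlapped (log2 fold change 0.05, 95% interval -0.06 to 0.16, edgeR adjusted p = 0.521). TBPL1, a TBP relative needed for sperm formation in mice, had 14.5, 15.8 and 15.03 CPM in TAF2 libraries, against 14.2, 14.4 and 13.7 CPM in eGFP libraries. Here the groups did not overlap, but the gene was not called, with a log2 fold change of 0.10 (SE 0.07, adjusted p = 0.27 in edgeR). The log2 ratio of TBPL1 to TBP averaged -0.71 ± 0.07 in TAF2 libraries and -0.76 ± 0.09 in eGFP libraries (SD, n = 3 each; exact two-sided permutation p = 0.6, and 0.7 after adjustment over 3 pairs). Of 3 regulators of TBP (BTAF1, DR1 and DRAP1), 0 rose and 0 fell in edgeR, where 43% of all tested genes were called. Of these regulators 1, BTAF1, had an unadjusted p under 0.05 (log2 fold change 0.08, adjusted p = 0.0503 in edgeR).

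Among the 13 TAFs, 5 rose and 2 fell with TAF2, 53.8% called, against 43% of all tested genes. Summed over the 13, their transcripts averaged 625 ± 6.60 CPM in TAF2 libraries and 588 ± 2.24 CPM in eGFP libraries (SD, n = 3 each), with no overlap between the groups. Most of that gap came from TAF15, which averaged 174 CPM in TAF2 libraries and 150.4 CPM in eGFP libraries, and TAF4, which averaged 74.8 CPM in TAF2 libraries and 64.8 CPM in eGFP libraries. The rises were TAF15, TAF4, TAF9B, TAF1 and TAF7, and the falls TAF9 and TAF11. TAF15, an RNA-binding protein of the FET family, had 172, 172 and 179 CPM in TAF2 libraries, against 152, 148 and 151 CPM in eGFP libraries, a log2 fold change of 0.21 (SE 0.03, adjusted p = 6.13e-09 in edgeR). TAF4, a scaffold subunit that pairs with TAF12, had 77.5, 74.5 and 72.5 CPM in TAF2 libraries, against 61.9, 66.9 and 65.7 CPM in eGFP libraries, a log2 fold change of 0.21 (SE 0.04, adjusted p = 1.39e-05 in edgeR). For both genes every TAF2 library was above every eGFP library. TAF1, the largest TFIID subunit, had 48.1, 51.5 and 49.7 CPM in TAF2 libraries, against 44.6, 47.0 and 45.4 CPM in eGFP libraries, a log2 fold change of 0.13 (SE 0.04, adjusted p = 0.0145 in edgeR). TAF7, which binds TAF1, had 82.2, 78.3 and 81.6 CPM in TAF2 libraries, against 74.9, 75.9 and 76.6 CPM in eGFP libraries, a log2 fold change of 0.09 (SE 0.03, adjusted p = 0.0278 in edgeR). The groups were also apart for TAF1 and TAF7, by narrower margins, and both calls were lost in DESeq2 (adjusted p of 0.0753 for TAF1 and 0.0986 for TAF7). TAF1 also lost its call without TAF2 replicate 2 or eGFP replicate 1. TAF7 lost it without TAF2 replicate 1, TAF2 replicate 3 or eGFP replicate 1, and without the genes of chromosomes 4 and 11.

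TAF9 and TAF9B are near relatives that each pair with TAF6 inside TFIID, and their transcripts moved apart. TAF9B, at chrX:78129748-78139650, had 19.9, 19.6 and 20.6 CPM in TAF2 libraries, against 15.9, 17.0 and 16.9 CPM in eGFP libraries, a log2 fold change of 0.27 (SE 0.06, adjusted p = 0.00046 in edgeR). TAF9, at chr5:69364743-69369824, had 66.8, 62.0 and 65.9 CPM in TAF2 libraries, against 71.5, 71.9 and 74.5 CPM in eGFP libraries, a log2 fold change of -0.16 (SE 0.04, adjusted p = 0.000386 in edgeR). Neither gene had overlapping groups, TAF9B lying above eGFP and TAF9 below it. The log2 ratio of TAF9B to TAF9 in CPM averaged -1.70 ± 0.05 in TAF2 libraries and -2.13 ± 0.05 in eGFP libraries (SD, n = 3 each), a difference of 0.44. The exact two-sided permutation p was 0.1, the smallest that 3 against 3 allows, and 0.3 after adjustment over the 3 paralog pairs. With the genes apart in opposite directions the ratio had to be apart too, so this p adds nothing to the calls of TAF9 and TAF9B. By the mean ratios TAF9B made up more of the pair with TAF2, though TAF9 stayed the higher one. Per kilobase of transcript TAF9 was at 47.3 ± 1.87 CPM per kb against 7.39 ± 0.19 for TAF9B in TAF2 libraries, and 52.9 ± 1.18 against 6.12 ± 0.24 in eGFP libraries. Of the TAF9 exon bases, 20.6% also belong to AK6 on the same strand, so reads there could be divided between the genes; AK6 had a log2 fold change of 0.07.

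**Figure D2:**
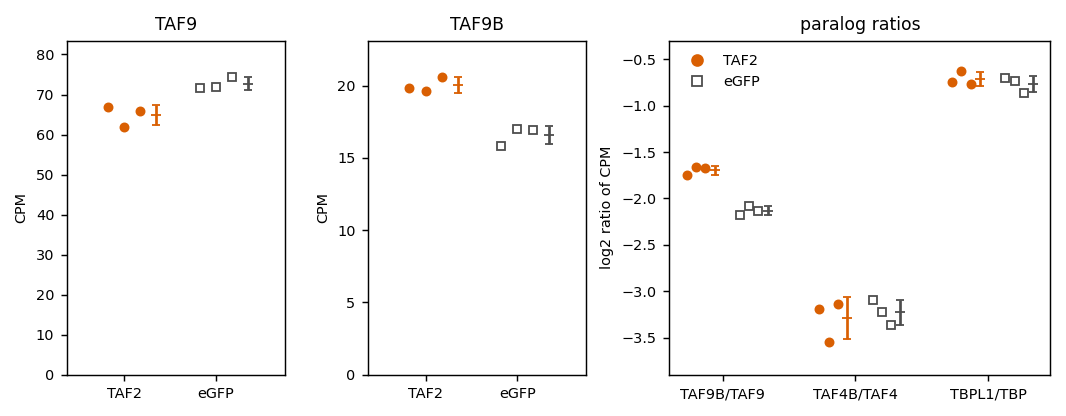
CPM of TAF9 and TAF9B in each of the 6 libraries (left and middle, axes from 0) and the log2 ratios of 3 paralog pairs (right), TAF2 as filled circles and eGFP as open squares, with mean and SD of 3 libraries beside the points. TAF9 is lower and TAF9B higher in all 3 TAF2 libraries, so their log2 ratio differs by 0.44, while TAF4B/TAF4 and TBPL1/TBP overlap.

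The other paralog pair of TFIID showed no such split. TAF4B, a TAF4 relative best known from germ cells and ovary, had 8.51, 6.36 and 8.25 CPM in TAF2 libraries, against 7.27, 7.15 and 6.38 CPM in eGFP libraries, with a log2 fold change of 0.15 (SE 0.11, adjusted p = 0.264 in edgeR). The groups overlapped, and the second TAF2 library was the lowest of all 6. The log2 ratio of TAF4B to TAF4 averaged -3.29 ± 0.23 in TAF2 libraries and -3.23 ± 0.14 in eGFP libraries (SD, n = 3 each; exact two-sided permutation p = 0.7, and 0.7 after adjustment). Its difference of -0.06 became 0.07 without the second TAF2 library, and TAF4B was then called (log2 fold change 0.28, edgeR adjusted p = 0.0438).

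TAF11 and TAF13 form a histone-fold pair that contacts TBP, and only TAF11 was called. TAF11, the larger of the pair, had 36.0, 40.3 and 37.3 CPM in TAF2 libraries, against 41.2, 43.4 and 41.1 CPM in eGFP libraries, a log2 fold change of -0.14 (SE 0.05, adjusted p = 0.0114 in edgeR) with no overlap. This call was lost in DESeq2 (adjusted p = 0.0898) and when TAF2 replicate 1, TAF2 replicate 3 or eGFP replicate 2 was left out. TAF13 had a log2 fold change of 0.10 (SE 0.10, adjusted p = 0.441 in edgeR). The remaining TAFs were not called either: the histone-mark reader TAF3 at 0.09, the scaffold TAF5 at -0.0028, its partner TAF6 at 0.01 and the TAF4 partner TAF12 at -0.15. The sign of TAF5 changed with the scaling. TAF2's own neighbours in TFIID differed from each other: TAF10 fell, at 33.0 ± 0.27 CPM in TAF2 libraries and 41.2 ± 2.22 CPM in eGFP libraries (SD, n = 3 each; log2 fold change -0.32, edgeR adjusted p = 5.02e-07), and TAF8 was not called (log2 fold change 0.07).

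TFIIA and TFIIB, the factors that hold TBP in place, changed in 1 of 3 genes, 33.3% called, against 43% of all tested genes. GTF2A2, the small subunit of TFIIA, had 34.98, 34.8 and 35.6 CPM in TAF2 libraries, against 31.9, 31.1 and 33.2 CPM in eGFP libraries, a log2 fold change of 0.13 (SE 0.05, adjusted p = 0.0246 in edgeR). Its groups did not overlap, but the call was lost in DESeq2 (adjusted p = 0.115) and without TAF2 replicate 3, eGFP replicate 1, eGFP replicate 2 or the genes of chromosomes 4 and 11. GTF2A1, which encodes the larger TFIIA subunits, had a log2 fold change of -0.10 (SE 0.05, adjusted p = 0.0944 in edgeR), and GTF2B, the gene of TFIIB, -0.02 (SE 0.07, adjusted p = 0.802 in edgeR). The sum over the 3 genes averaged 88.6 ± 0.57 CPM in TAF2 libraries and 88.4 ± 2.34 CPM in eGFP libraries (SD, n = 3 each), and the groups overlapped.

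Both subunits of TFIIF, the partner of Pol II, rose with TAF2. GTF2F2, its small subunit, had 34.3, 33.5 and 33.1 CPM in TAF2 libraries, against 27.9, 28.6 and 27.1 CPM in eGFP libraries, a log2 fold change of 0.27 (SE 0.05, adjusted p = 1.83e-05 in edgeR). GTF2F1, its large subunit, had 96.7, 97.8 and 96.2 CPM in TAF2 libraries, against 89.5, 89.6 and 91.7 CPM in eGFP libraries, a log2 fold change of 0.10 (SE 0.03, adjusted p = 0.00686 in edgeR). Every TAF2 library was above every eGFP library for both. Both calls held in every alternative except the test against 1.2-fold. The TFIIE genes were not called, GTF2E2 at 0.11 (SE 0.05, adjusted p = 0.0714 in edgeR) and GTF2E1 at 0.01 (SE 0.06, adjusted p = 0.891 in edgeR). GTF2E2 was called under upper-quartile scaling (edgeR adjusted p = 0.0389), with no low-count filter (edgeR adjusted p = 0.0384) and without TAF2 replicate 1 or eGFP replicate 2. TFIIE and TFIIF together summed to 197 ± 1.2 CPM in TAF2 libraries and 182 ± 0.92 CPM in eGFP libraries (SD, n = 3 each), with no overlap. Of their 4 genes 2 were called (50%), against 43% of all tested genes.

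In the TFIIH core, 1 of 7 genes rose and 2 fell, 42.9% called, against 43% of all tested genes. ERCC2, the XPD helicase also used in DNA repair, had 54.8, 53.0 and 54.8 CPM in TAF2 libraries, against 47.0, 49.6 and 46.9 CPM in eGFP libraries, a log2 fold change of 0.18 (SE 0.04, adjusted p = 0.000291 in edgeR). GTF2H1, a scaffold subunit, had 39.6, 43.8 and 39.5 CPM in TAF2 libraries, against 48.6, 51.7 and 52.3 CPM in eGFP libraries, a log2 fold change of -0.31 (SE 0.05, adjusted p = 2.9e-07 in edgeR). GTF2H5, the smallest core subunit, had 17.8, 19.2 and 20.8 CPM in TAF2 libraries, against 23.3, 21.3 and 21.6 CPM in eGFP libraries, a log2 fold change of -0.19 (SE 0.06, adjusted p = 0.0128 in edgeR). The groups did not overlap in any of these 3 genes. The call of GTF2H5 was lost in DESeq2 (adjusted p = 0.103) and without TAF2 replicate 1 or eGFP replicate 1. The translocase ERCC3, which opens promoter DNA, was not called at 0.03 (SE 0.04, adjusted p = 0.515 in edgeR), and neither were GTF2H2 at 0.09 or GTF2H3 at -0.06. GTF2H2 has near-identical copies in the genome and its count is uncertain. GTF2H4, at 0.12 (SE 0.05, adjusted p = 0.0569 in edgeR), had groups that did not overlap and shares 79.0% of its exon bases with VARS2 on the same strand, so its reads may be divided between them; VARS2 had a log2 fold change of 0.12. GTF2H4 was called with RLE size factors (edgeR adjusted p = 0.0491), with upper-quartile scaling (edgeR adjusted p = 0.0336), with no low-count filter (edgeR adjusted p = 0.04) and without TAF2 replicate 1. The core genes summed to 278 ± 4.04 CPM in TAF2 libraries and 282 ± 4.35 CPM in eGFP libraries (SD, n = 3 each), and the groups overlapped.

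The kinase module of TFIIH phosphorylates the Pol II tail and, as a free complex, activates cell cycle kinases. CDK7, its kinase, had 40.4, 41.9 and 40.5 CPM in TAF2 libraries, against 33.9, 32.8 and 36.9 CPM in eGFP libraries, a log2 fold change of 0.24 (SE 0.05, adjusted p = 5.13e-05 in edgeR) with no overlap. The kinase's partners were not called: cyclin H (CCNH) was at 0.08 (SE 0.05, adjusted p = 0.229 in edgeR) and the assembly factor MNAT1 at -0.05 (SE 0.06, adjusted p = 0.534 in edgeR). The difference of CDK7 from its partners was not tested. With 1 of the 3 genes called, the share was 33.3%, against 43% of all tested genes. CDK7 (chr5:69234795-69277430) and TAF9 (chr5:69364743-69369824) lie near each other on chromosome 5 and moved in opposite directions, while the median over tested genes within 5 Mb was 0.02 around CDK7 and 0.03 around TAF9. The module summed to 94.5 ± 1.17 CPM in TAF2 libraries and 87.3 ± 1.53 CPM in eGFP libraries (SD, n = 3 each), a gap that came mostly from CDK7.

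**Figure D3:**
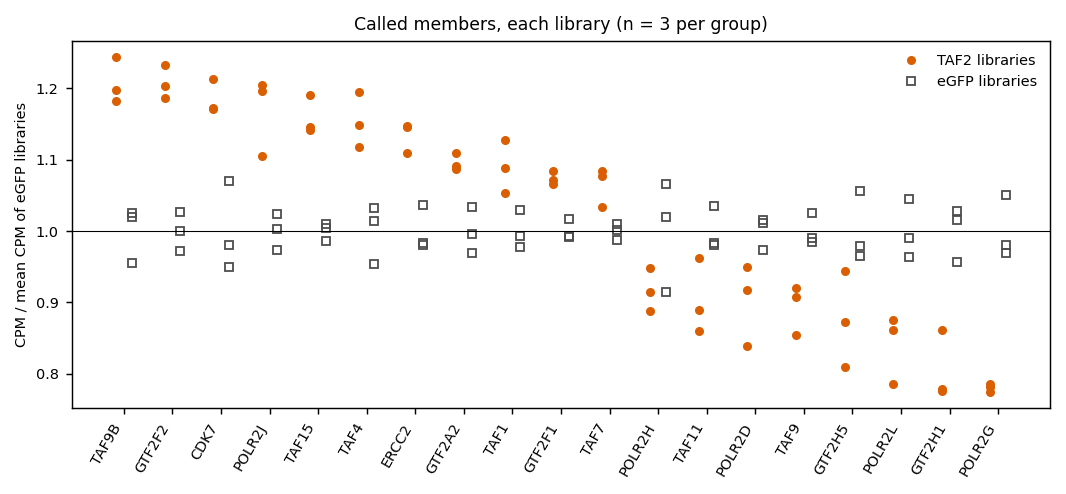
CPM of the 19 called members in each library, divided by the mean of the 3 eGFP libraries, TAF2 as filled circles and eGFP as open squares, ordered by the change. The 2 sets of points are apart for every gene but POLR2H, whose lowest eGFP library (44.2 CPM) lies among the TAF2 libraries (43.0 to 45.9 CPM).

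Of the 12 Pol II subunits, 1 rose and 4 fell, 41.7% called, against 43% of all tested genes. POLR2A, the largest, catalytic subunit, had 310, 311 and 319 CPM in TAF2 libraries, against 316, 316 and 315 CPM in eGFP libraries, and the groups overlapped. Its log2 fold change was -0.01 (SE 0.02, adjusted p = 0.765 in edgeR), with a 95% interval of -0.06 to 0.04. POLR2B, which completes the active site, was at -0.04 (SE 0.03, adjusted p = 0.26 in edgeR) and POLR2C, an assembly subunit, at -0.02 (SE 0.03, adjusted p = 0.683 in edgeR). None of these 3 was called, and their unadjusted p-values in edgeR were 0.666 for POLR2A, 0.159 for POLR2B and 0.569 for POLR2C.

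POLR2D and POLR2G form the stalk of Pol II beside the RNA exit, and both fell. POLR2G, at chr11:62761580-62766710, had 30.7, 30.5 and 30.3 CPM in TAF2 libraries, against 41.0, 38.3 and 37.8 CPM in eGFP libraries, a log2 fold change of -0.36 (SE 0.05, adjusted p = 4.64e-08 in edgeR), the lowest of all members. POLR2D, on chromosome 2, had 56.8, 58.8 and 52.0 CPM in TAF2 libraries, against 62.8, 62.6 and 60.3 CPM in eGFP libraries, a log2 fold change of -0.15 (SE 0.04, adjusted p = 0.0029 in edgeR). All TAF2 libraries were below all eGFP libraries in both genes. Tested genes within 5 Mb had a median log2 fold change of -0.29 around POLR2G and -0.04 around POLR2D. The part of position in these falls was not tested. The POLR2D call was lost without TAF2 replicate 3 (log2 fold change -0.10, edgeR adjusted p = 0.0685).

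The next 5 subunits are shared with Pol I and Pol III. Of these POLR2L and POLR2H fell and the others were not called. POLR2L, a small zinc-binding subunit, had 55.2, 56.1 and 50.3 CPM in TAF2 libraries, against 67.0, 61.8 and 63.4 CPM in eGFP libraries, a log2 fold change of -0.25 (SE 0.04, adjusted p = 3.95e-06 in edgeR) with no overlap. Opposite-strand CD151 covers 22.5% of its exon bases, and CD151 had a log2 fold change of -0.32. POLR2H, a shared subunit on chromosome 3, had 43.0, 44.3 and 45.9 CPM in TAF2 libraries, against 51.6, 44.2 and 49.3 CPM in eGFP libraries, a log2 fold change of -0.13 (SE 0.05, adjusted p = 0.028 in edgeR). Its groups overlapped, and the call was lost in DESeq2 (adjusted p = 0.152), under upper-quartile scaling (edgeR adjusted p = 0.0523) and when TAF2 replicate 1, TAF2 replicate 2, eGFP replicate 1 or eGFP replicate 3 was left out. POLR2E was at -0.04 (SE 0.02, adjusted p = 0.157 in edgeR), POLR2F at 0.08 (SE 0.04, adjusted p = 0.125 in edgeR) and POLR2K at 0.06 (SE 0.06, adjusted p = 0.448 in edgeR). POLR2F was called without TAF2 replicate 2 (edgeR adjusted p = 0.0347) or eGFP replicate 1 (edgeR adjusted p = 0.0423).

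POLR2J, the assembly partner of POLR2C, was the Pol II subunit that rose. It had 29.6, 27.4 and 29.8 CPM in TAF2 libraries, against 24.1, 24.8 and 25.3 CPM in eGFP libraries, a log2 fold change of 0.23 (SE 0.05, adjusted p = 0.000687 in edgeR) with no overlap. Near-identical copies make its count uncertain. Of 6 tested copies of POLR2J and GTF2H2, 1 rose and 0 fell, 16.7% called, against 43% of all tested genes. The copy that rose, POLR2J3, was at 8.64 ± 1.30 CPM in TAF2 libraries and 7.10 ± 0.43 CPM in eGFP libraries (SD, n = 3 each). Its log2 fold change was 0.28 (adjusted p = 0.0301 in edgeR). The groups of POLR2J3 overlapped. POLR2I, which takes part in transcript cleavage, was not called at 0.01 (SE 0.07, adjusted p = 0.896 in edgeR). The 12 subunits summed to 1113 ± 7.63 CPM in TAF2 libraries and 1148 ± 16.1 CPM in eGFP libraries (SD, n = 3 each). Those sums did not overlap with TMM scaling and overlapped with upper-quartile scaling, where TAF2 libraries ran from 1113 to 1126 CPM and eGFP libraries from 1123 to 1161 CPM. Part of the gap lay in POLR2L and POLR2G, both on chromosome 11. They averaged 53.8 and 30.5 CPM in TAF2 libraries, against 64.1 and 39.1 CPM in eGFP libraries.

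Levels per kilobase of transcript differed widely among Pol II subunits in both groups. POLR2E was the highest of the 11 with a transcript length, at 77.8 ± 0.60 CPM per kb in TAF2 libraries and 80.2 ± 2.04 CPM per kb in eGFP libraries (SD, n = 3 each). POLR2D was the lowest, at 11.1 ± 0.70 CPM per kb in TAF2 libraries and 12.3 ± 0.28 CPM per kb in eGFP libraries. The order of the subunits between these ends was not quite the same in both groups. POLR2L was at 60.4 ± 3.49 CPM per kb in TAF2 libraries and 71.8 ± 2.98 CPM per kb in eGFP libraries. In TAF2 libraries POLR2L and POLR2C (59.0 ± 1.1 CPM per kb) lay within their spread of each other, whereas in eGFP libraries POLR2L was above POLR2C (59.7 ± 1.51 CPM per kb). POLR2G was at 36.9 ± 0.26 CPM per kb in TAF2 libraries and 47.2 ± 2.10 CPM per kb in eGFP libraries, and so was below POLR2B in TAF2 libraries (39.5 ± 0.40 CPM per kb) and above it in eGFP libraries (40.5 ± 0.73 CPM per kb). These lengths are means over annotated transcripts and not those of the transcripts used in these cells.

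**Figure D4:**
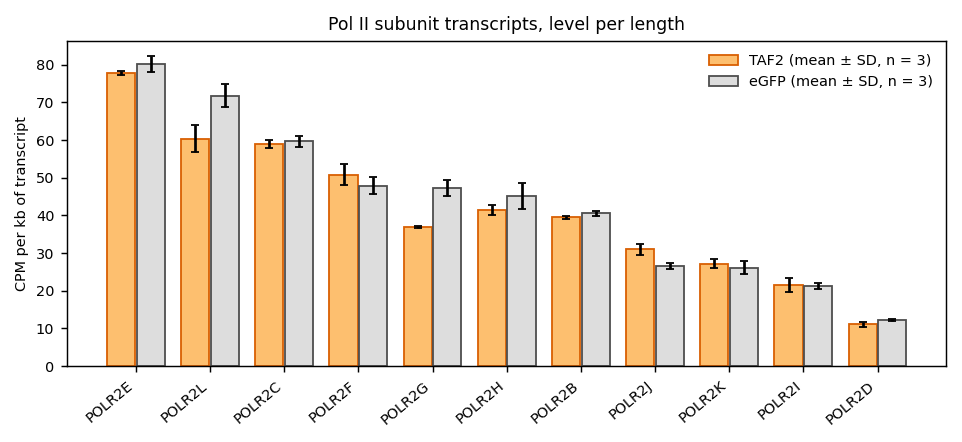
Mean CPM per kilobase of transcript for 11 Pol II subunits in TAF2 (orange, left bar) and eGFP (grey, right bar) libraries, with SD of 3 libraries; POLR2A has no matched length and is left out. POLR2E is highest and POLR2D lowest in both groups, and POLR2G has the widest relative gap, 36.9 in TAF2 and 47.2 in eGFP libraries.

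The position of the members went with part of the falls. Over the 721 tested genes of chromosome 11 the median log2 fold change was -0.28, and 74.2% of those genes were called lower. The 3 members there, GTF2H1, POLR2G and POLR2L, all fell, by amounts near those of the genes around them: they differed from the median of tested genes within 5 Mb by 0.01, -0.07 and 0.00 in that order. The part of this chromosome-wide difference in their falls was not tested. The median over the 414 tested genes of chromosome 4 was -0.18, and its 1 member, POLR2B, was not called and lay 0.14 above its neighbours. TAF10, whose fall is given above, is also on chromosome 11.

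On the other chromosomes 11 members rose, 5 fell and 24 were not called, and the 40 had a median change of 0.07 on the log2 scale. Over all tested genes, with chromosomes 4 and 11 included, 20.6% were called higher and 22.4% lower. On chromosome 4, 6.28% were called higher and 58.0% lower, and on chromosome 11, 2.91% and 74.2%. That background therefore leans lower than the one of the other chromosomes, and it overstates how far the 40 members lean higher. Medians over tested genes of the other chromosomes ran from -0.03 (chromosome 6) to 0.08 (chromosome 18). The 11 that rose lay 0.04 (TAF7) to 0.31 (TAF9B) above the median of the tested genes within 5 Mb. GTF2F2 and POLR2J were each 0.23 above it, CDK7 0.22 and TAF4 0.21. For the 5 that fell the difference from that median was -0.19 for TAF9, -0.13 for GTF2H5, -0.12 for TAF11, -0.11 for POLR2D and -0.10 for POLR2H. Around these called members the medians ran only from -0.06 (GTF2H5) to 0.06 (TAF15), so the signs of the differences followed from the calls. The part of position in these changes was not tested. With the genes of chromosomes 4 and 11 left out of the fit, an alternative chosen after seeing the data, 9 of the 40 remaining members rose and 5 fell. In that fit 2219 of all 11767 tested genes rose and 2330 fell.

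**Figure D5:**
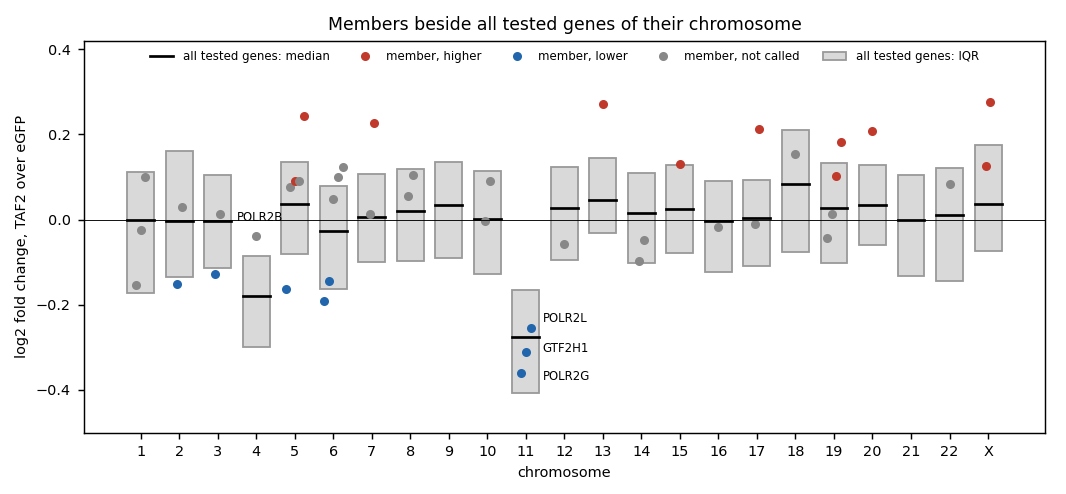
Log2 fold change of the 44 members (points) by chromosome, TAF2 over eGFP, beside all tested genes of that chromosome (bar: interquartile range, IQR; line: median). The 3 members on chromosome 11 lie inside its bar around -0.28, and the members that rose lie on other chromosomes.

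Around the members, genes that act on Pol II after initiation were counted in the same fit. Of 17 pause and elongation factors 3 rose and 2 fell, 29.4% called, against 43% of all tested genes. TCEA2, a transcript cleavage factor, was at 9.40 ± 0.60 CPM in TAF2 libraries and 12.5 ± 0.24 CPM in eGFP libraries (SD, n = 3 each; log2 fold change -0.40, edgeR adjusted p = 0.000118). HEXIM1, which holds the elongation kinase P-TEFb inactive, fell less (log2 fold change -0.13, edgeR adjusted p = 0.00184). Of 11 genes that act on or bind the Pol II tail (kinases, a cyclin, phosphatases and tail-binding proteins) 5 rose and 1 fell, 54.5% called, against the same 43%. CTDSPL, a small phosphatase of this family, had 85.5, 90.6 and 88.3 CPM in TAF2 libraries, against 27.8, 26.4 and 27.3 CPM in eGFP libraries, a log2 fold change of 1.70 (SE 0.04, adjusted p = 2.57e-31 in edgeR). The 1 that fell, RPRD1A, is a tail-binding protein and neither a kinase nor a phosphatase (log2 fold change -0.15, edgeR adjusted p = 0.000171). The widest change of a member, in POLR2G, was -0.36.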

How the data were processed

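RNA-seq was measured in 6 libraries made with an Illumina TruSeq kit and sequenced in 2 rounds, per the labels' protocols. Gene-level expected counts, not normalized, were deposited by the authors in 1 table, made with RSEM on hg38 per the submitters' processing notes. The aligner, annotation release and use of strand were not given in the sources used here, so reads of overlapping genes, which touch 18 members, cannot be told apart. Between 4.18% and 4.45% of deposited expected counts per library were not whole, and they were rounded. There were 0 unused columns.

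Genes were kept by filterByExpr (12902), scaled by TMM (factors 0.9976 to 1.003) and compared with edgeR 4.0.16 in R 4.3.3 (glmQLFit, robust; glmQLFTest; group alone), with Benjamini-Hochberg adjustment over all tested genes at 0.05. No library was a copy of another (chi-square over genes divided by its degrees of freedom was 1.98 to 5.91 within groups). The coefficient of variation of a member within a group had a median of 3.35%. The fit was tested on simulated data with known changes, 50 genes at each size. It called 30% of changes of 1.1-fold, 78% of 1.2-fold, 92% of 1.5-fold and 98% of 2-fold, with 8 false calls among 12829 genes. Changes near 1.1-fold could thus go uncalled.

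Paralog ratios were compared by exact two-sided permutation. Coordinates are RefSeq's on GRCh38.p14, matched by transcript accession (12748 tested genes, 98.8%); lengths are means of GENCODE 29 transcripts matched by accession (43 of 44 members); exon overlaps are from GENCODE 29; promoters are RefSeq's, cut at GENCODE 29 exons. Alternatives were RLE and upper-quartile scaling, other filters, DESeq2 1.42.0, glmTreat against 1.2-fold, a replicate block, each library left out, and the genes of chromosomes 4 and 11 left out. By rule, values per library are given for called members, POLR2A, TBP and paralog pairs, and other lists are given by counts with at most 2 called genes each. The members and lists were chosen with earlier results of these data known.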

Additional observations from a re-analysis of the deposited data

How the results depend on the processing

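Of the 19 called members, 12 (8 higher and 4 lower) were called under every alternative other than the test against 1.2-fold: TAF4, TAF9, TAF9B, TAF15, GTF2F1, GTF2F2, GTF2H1, ERCC2, CDK7, POLR2G, POLR2J and POLR2L. TAF1, TAF7, TAF11, GTF2A2, GTF2H5, POLR2D and POLR2H lost the call in at least 1, and TAF4B, GTF2E2, GTF2H4 and POLR2F gained one in at least 1. The test against 1.2-fold called 0 members (0 higher, 0 lower), and 467 higher and 776 lower genes of the whole table. DESeq2 called 13 members, 8 higher and 5 lower, and it called 1981 higher and 2109 lower of the 17453 genes of the whole table that it tested. Without the genes of chromosomes 4 and 11, an alternative chosen after seeing the data, the lower members were 5, of 40 left in that fit. Of all 11767 genes tested in that fit, 2330 were lower. With 1 library left out, 15 to 19 members were called, 9 to 12 higher and 5 to 7 lower (5 without TAF2 replicate 1), and 2282 to 2631 genes of the whole table were higher and 2518 to 2699 lower; the cause was not tested. Upper-quartile scaling called 3001 genes higher and 2675 lower (52.9% higher, against 48.0% with TMM) and moved the median of all genes by 0.01.

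Small, uncalled values changed sign. TAF5 was at 0.0012 with RLE, 0.011 with upper-quartile scaling, 0.0076 with no filter, 0.0031 in DESeq2 and 0.00056 with the replicate block, and at -0.041 to 0.061 with 1 library left out. POLR2A was at 0.0040 with upper-quartile scaling and 0.00053 with no filter, and at -0.022 to 0.0035 with 1 library left out. Without chromosomes 4 and 11, TAF6 was at -0.0022, GTF2E1 at -0.0038 and POLR2I at -0.0030. With 1 library left out, TAF6 ran from -0.026 to 0.045, GTF2B from -0.051 to 0.00052, GTF2E1 from -0.035 to 0.051, GTF2H2 from -0.031 to 0.20, POLR2C from -0.029 to 0.0074, POLR2I from -0.041 to 0.080 and the log2 ratio of TAF4B to TAF4 from -0.14 to 0.066. Deviations from the group mean correlated at -0.0446, -0.0905 and -0.103 for same-numbered libraries and at 0.00935 to 0.0833 for differently numbered ones. Deviations from a mean of 3 constrain each other, so these correlations cannot show whether libraries were handled in pairs. With the replicate block the count of members called was 19, and it shared 19 with the fit without it.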

Other observations

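TBP and several Pol II subunits also serve Pol I and Pol III, and the genes particular to those polymerases were counted in the same fit. Of 11 Pol III subunits 6 rose and 0 fell with TAF2 in edgeR, and 0 were lower at an unadjusted p under 0.05. The share called was 54.5%, against 43% of all tested genes (20.6% higher, 22.4% lower). POLR3E averaged 169 ± 4.74 CPM in TAF2 libraries and 151 ± 2.28 CPM in eGFP libraries, and POLR3F 24.2 ± 1.07 CPM in TAF2 libraries and 19.6 ± 0.82 CPM in eGFP libraries (SD, n = 3 each). Their log2 fold changes were 0.16 (edgeR adjusted p = 3.61e-06) and 0.31 (edgeR adjusted p = 4.27e-05). Of 8 Pol I subunits 3 rose and 0 fell in edgeR, and here too 0 were lower at an unadjusted p under 0.05, a share called of 37.5%, below that of all tested genes. POLR1G averaged 40.7 ± 2.04 CPM in TAF2 libraries and 32.4 ± 0.76 CPM in eGFP libraries, and POLR1D 98.5 ± 1.41 CPM in TAF2 libraries and 88.4 ± 5.17 CPM in eGFP libraries (SD, n = 3 each). POLR1G and POLR1D had log2 fold changes of 0.33 (edgeR adjusted p = 2.63e-07) and 0.16 (edgeR adjusted p = 0.000306). The median log2 fold change was 0.12 over the Pol III subunits, 0.06 over the Pol I subunits and -0.03 over the 12 Pol II subunits. The differences between the polymerases were not tested, and 2 of the 12 Pol II subunits lie on chromosome 11.

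Of 7 genes of SL1 and TFIIIB, the TBP complexes of Pol I and Pol III, 1 rose and 1 fell, 28.6% called, against 43% of all tested genes. TAF1C averaged 39.4 ± 2.65 CPM in TAF2 libraries and 33.6 ± 1.61 CPM in eGFP libraries (log2 fold change 0.22, edgeR adjusted p = 0.000343). TAF1D, on chromosome 11, where the median over tested genes was -0.28, averaged 32.0 ± 3.22 CPM in TAF2 libraries and 39.2 ± 2.04 CPM in eGFP libraries (SD, n = 3 each; log2 fold change -0.29, edgeR adjusted p = 0.000224). Of 6 tissue-restricted genes or paralogs of TFIID and TFIIA genes only 2, the paralogs TAF5L and TAF6L, passed the filter on low counts. TAF1L, TAF7L, TBPL2 and GTF2A1L had at most 2 counts in any library. Of the 2 tested, 1 fell, 50% called, against 43% of all tested genes. TAF6L, also on chromosome 11, fell from 17.9 ± 0.65 CPM in eGFP libraries to 13.9 ± 0.97 CPM in TAF2 libraries (SD, n = 3 each). Its log2 fold change was -0.37 (adjusted p = 3.97e-05 in edgeR).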
